A study of Mus musculus with 6 samples.

Results

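Lipid-associated macrophages are described here by 10 genes chosen by name, Trem2, Tyrobp, Cd9, Spp1, Gpnmb, Cd68, Apoe, Lipa, Atp6v0d2 and Ctsk, each of which matched 1 of the 54532 genes in the deposited table. All 10 passed the filter on low counts and were among the 16623 genes tested. The tissue was inguinal white fat, which lies under the skin, and RNA-seq was done on 3 control and 3 Cdo1AKO samples. Controls carry Cdo1 flanked by lox sites and are called WT in the genotype labels, and in Cdo1AKO mice the gene was knocked out in adipose tissue. All mice started a high-fat diet at 8 weeks of age and stayed on it for 15 weeks, so both groups are obese-diet groups and there is no lean group. The promoter that drove the deletion, the floxed exons and whether a sample held 1 animal or several are given by no source used here. The p-values therefore speak only of the spread among these libraries, part of which may be technical.

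In obese fat, macrophages gather around dying adipocytes, take up their lipid and digest it in lysosomes. The surface receptor TREM2 binds lipids and lipoproteins and signals through the adaptor TYROBP, also called DAP12, and macrophages of this type are known for high expression of lysosomal, lipid-binding and matrix-degrading genes. Bulk tissue RNA mixes all cells of the depot, so fewer cells of a type and less RNA per cell cannot be told apart in any value given here.

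The libraries held 16275184 to 19205804 counts. Cdo1 itself was at 432 to 887 CPM, the usual depth-scaled count, here with TMM-scaled library sizes, in controls and at 123 to 392 CPM in Cdo1AKO, with log2 fold change -1.59 ± 0.53 (SE, 3 libraries per group) and adjusted p = 0.416 by edgeR. The 392 CPM was that of Cdo1AKO 2, close to the 432 CPM of control 2, whereas Cdo1AKO 1 and 3 had 123 and 134 CPM. Cdo1AKO 2 is also the highest library for 7 of the 10 genes, so member values are given without it below. Markers of B cells and lymph node stroma, 16 listed genes found in the table, set 2 libraries apart from the rest. The median of these genes came to 0.0614 CPM for control 1, to 0.386 CPM for Cdo1AKO 2, and to 47.6 to 92.0 CPM for the other 4 libraries, so each group had 1 library without and 2 with these transcripts. All 12 adipocyte markers of a list of cell type genes were detected in every library. Over all genes, edgeR's quasi-likelihood test with Benjamini-Hochberg adjustment called 0 genes at adjusted p under 0.05, or 0% of those tested, with 10.4% at an unadjusted p under 0.05. DESeq2 called 399 genes and limma-voom 0.

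Of the 10 genes, 8 had a higher and 2 a lower fitted level in Cdo1AKO, with a median log2 fold change of 0.58 against 0.058 over all genes tested, of which 56% were positive. None of the 10 passed edgeR's test at adjusted p under 0.05. At an unadjusted p under 0.05 there were 4, Trem2, Tyrobp, Cd9 and Cd68, all higher in Cdo1AKO, against a background of 4.66% of tested genes on the higher side and 5.71% on the lower. DESeq2 called 1, Tyrobp, on the higher side, where it called 2.55% of genes (0.895% higher and 1.66% lower). In 5 of the 10, Trem2, Tyrobp, Cd9, Gpnmb and Cd68, every Cdo1AKO library lay above every control library (background 8.87%), and in 1, Apoe, every Cdo1AKO library lay below (background 9.73%). The genes were chosen with earlier results of these data known, so these shares describe them and test nothing. Apoe and Spp1 went against the direction of the other 8.

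Promoter sequence was available for 8 of the 10 genes (RefSeq, GRCm38.p6, the 250 bases before the start). Motifs searched on both strands were the E-box forms CACGTG, TCACGTGA and TCATGTGA, which MiT/TFE factors bind, the AP-1 motif TGACTCA and the PU.1 motif GAGGAAGT. TCACGTGA contains CACGTG. Cd68 held the AP-1 letters at 149 and 24 bases before its start, read as TGAGTCA on its own strand, and Spp1 the PU.1 letters at 113 bases. None of the E-box forms searched was found in any of the 8 windows, and other E-box letters were not searched. Of 32851 windows of the same length, 6.02% held CACGTG, 0.785% TCACGTGA, 0.846% TCATGTGA, 4.46% TGACTCA and 2.44% GAGGAAGT. A match describes letters and not a bound site. Cd68 (chr11:69666171-69666420, minus strand) is shown as a gene that was higher in every Cdo1AKO library and whose window holds 1 motif at 2 places, Spp1 (chr5:104434861-104435110, plus strand) as the scarce gene that went the other way, and Trem2 (chr17:48346151-48346400, plus strand) as the gene with the largest fitted difference and no match. Capitals mark the matches.
Cd68: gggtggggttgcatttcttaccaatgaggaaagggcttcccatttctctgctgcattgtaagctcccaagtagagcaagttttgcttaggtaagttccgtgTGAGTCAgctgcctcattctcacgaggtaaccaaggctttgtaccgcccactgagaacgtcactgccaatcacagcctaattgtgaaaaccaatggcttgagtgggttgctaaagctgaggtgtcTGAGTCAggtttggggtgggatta
Spp1: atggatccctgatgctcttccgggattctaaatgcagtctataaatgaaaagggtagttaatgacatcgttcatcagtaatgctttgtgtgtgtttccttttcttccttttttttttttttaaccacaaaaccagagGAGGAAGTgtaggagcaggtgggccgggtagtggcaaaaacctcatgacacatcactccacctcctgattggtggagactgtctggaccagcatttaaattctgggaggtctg
Trem2: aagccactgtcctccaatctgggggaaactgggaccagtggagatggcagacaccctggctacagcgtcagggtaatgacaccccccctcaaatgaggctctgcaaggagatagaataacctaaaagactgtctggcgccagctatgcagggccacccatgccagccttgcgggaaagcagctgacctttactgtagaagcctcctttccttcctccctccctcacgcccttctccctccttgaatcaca

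The receptor gene Trem2 (ENSMUSG00000023992, mm10 chromosome 17, 48346401 to 48354147, plus strand) had the largest fitted difference of the 10. Controls 1, 2 and 3 stood at 1.78, 5.19 and 3.81 CPM, and Cdo1AKO 1, 2 and 3 reached 5.70, 19.1 and 7.25 CPM. Every Cdo1AKO library lay above every control, but Cdo1AKO 1 was close to control 2 and Cdo1AKO 2 stood far above the rest, at 2.95 times the mean of Cdo1AKO 1 and 3. Its log2 fold change was 1.57 ± 0.60 (SE, 3 libraries per group), adjusted p = 0.454 by edgeR. Without Cdo1AKO 2 it was 0.84, and among the 4 libraries with lymph node transcripts 0.52 ± 0.25 (adjusted p = 0.211 by edgeR).

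Tyrobp (ENSMUSG00000030579, chromosome 7, 30413760 to 30417585, plus strand), whose product carries the signal of TREM2 and of several other myeloid and natural killer cell receptors, separated the groups with the smallest adjusted p of the 10. Its controls measured 18.2, 27.2 and 21.8 CPM and its Cdo1AKO libraries 37.4, 37.2 and 44.6 CPM. The lowest Cdo1AKO library was well above the highest control, and Cdo1AKO 2 did not stand out. A log2 fold change of 0.83 ± 0.19 (SE), adjusted p = 0.345 by edgeR, was fitted, and it was 0.87 without Cdo1AKO 2 and 0.69 without control 1. Tyrobp passed when lymph node transcripts were a term of the fit (0.84 ± 0.15, adjusted p = 0.0378 by edgeR), where 4.13% of genes passed, 2.26% higher and 1.87% lower. It passed within the 4 libraries that hold them (adjusted p = 0.0216 by edgeR), where 15.3% passed, 7.65% higher and 7.7% lower, and with DESeq2 (adjusted p = 0.0202). In the authors' deposited table its adjusted p was 0.0580, the smallest there among the 10, where 1% of the genes compared had an adjusted p under 0.05.

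Cd9 (ENSMUSG00000030342, chromosome 6, 125460266 to 125494791, minus strand) encodes a tetraspanin of the cell surface that is used with Trem2 to sort these macrophages and that many other cells make too. Controls were nearly identical, at 36.5, 35.3 and 36.3 CPM, and the Cdo1AKO libraries had 47.1, 54.4 and 44.7 CPM. The groups did not overlap, with a log2 fold change of 0.44 ± 0.13 (SE) and adjusted p = 0.384 by edgeR. With 1 library left out it ran from 0.35 without Cdo1AKO 2 to 0.50 without Cdo1AKO 3. An antisense gene, Gm28809, overlaps Cd9 and had 67 counts over all libraries against 4536 for Cd9; no strand setting is given, so a few reads could belong to either.

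**Figure D1:**
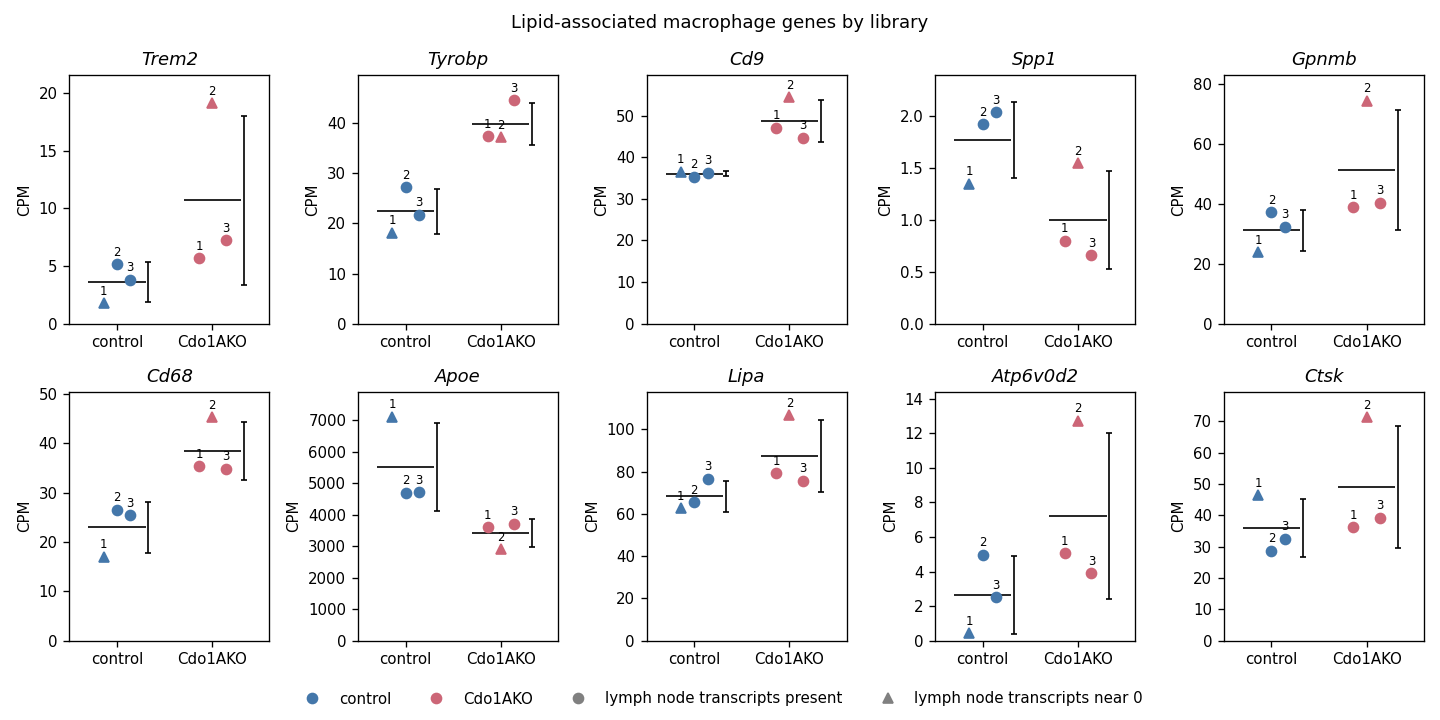
CPM of each gene (vertical axes start at 0) in 3 control and 3 Cdo1AKO libraries, numbered by replicate, with the group mean as a line and SD as a bar, and triangles for the 2 libraries in which lymph node transcripts were near 0. Cdo1AKO 2 is the highest library for 7 of the 10 genes and control 1 the lowest for 6, and both are triangles.

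Gpnmb (ENSMUSG00000029816, chromosome 6, 49036546 to 49070929, plus strand) encodes a transmembrane glycoprotein of lysosomes and melanosomes that rises in lipid-laden macrophages. It had 23.9, 37.2 and 32.4 CPM in controls and 38.9, 74.5 and 40.5 CPM in Cdo1AKO. Cdo1AKO 1 and control 2 differed by less than the controls did among themselves, and Cdo1AKO 2 stood far above the other libraries. The log2 fold change of 0.72 ± 0.31 (SE, adjusted p = 0.503 by edgeR) was 0.35 without that library and 0.18 ± 0.12 among the 4 libraries with lymph node transcripts. Spp1 (ENSMUSG00000029304, chromosome 5, 104435118 to 104441050, plus strand), which encodes the secreted matrix protein osteopontin, a ligand of integrins and CD44, was scarce and lower in Cdo1AKO. Its raw counts were 22, 36 and 38 in controls and 16, 24 and 12 in Cdo1AKO, or 1.35, 1.93 and 2.04 CPM against 0.800, 1.54 and 0.659 CPM. Cdo1AKO 2 lay above control 1, so the groups overlapped. A log2 fold change of -0.83 ± 0.43 (SE, adjusted p = 0.568 by edgeR) was fitted, and it was -1.27 without Cdo1AKO 2. Among the 4 libraries with lymph node transcripts it was -1.43 ± 0.37 and passed (adjusted p = 0.0436 by edgeR), at counts where a few reads move the value. There 7.7% of all genes passed on the lower side.

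Cd68 (ENSMUSG00000018774, chromosome 11, 69664213 to 69666153, minus strand), a heavily glycosylated protein of macrophage lysosomes and endosomes, followed Tyrobp. It had 17.0, 26.5 and 25.4 CPM in controls and 35.4, 45.4 and 34.9 CPM in Cdo1AKO, without overlap. Its log2 fold change was 0.74 ± 0.22 (SE, adjusted p = 0.377 by edgeR), 0.61 without Cdo1AKO 2 and 0.56 without control 1. Among the 4 libraries with lymph node transcripts it was 0.43 ± 0.11 and passed (adjusted p = 0.0400 by edgeR), where 7.65% of all genes passed on the higher side. Lipa (ENSMUSG00000024781, chromosome 19, 34492318 to 34527474, minus strand), the lysosomal acid lipase that frees cholesterol and fatty acids from engulfed lipid, differed less. It had 62.8, 65.5 and 76.7 CPM in controls and 79.4, 107 and 75.6 CPM in Cdo1AKO. Cdo1AKO 3 lay just below control 3, and the log2 fold change was 0.35 ± 0.18 (SE, adjusted p = 0.568 by edgeR), or 0.18 without Cdo1AKO 2.

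Atp6v0d2 (ENSMUSG00000028238, chromosome 4, 19876841 to 19922605, minus strand), a subunit of the proton pump that acidifies lysosomes, found chiefly in macrophages and osteoclasts, varied most between libraries. Its raw counts were 7, 93 and 47 in controls and 101, 198 and 71 in Cdo1AKO, or 0.430, 4.98 and 2.52 CPM against 5.05, 12.7 and 3.90 CPM. The highest library was 29.7 times the lowest, and Cdo1AKO 3 lay below control 2. The log2 fold change of 1.44 ± 0.85 (SE, adjusted p = 0.609 by edgeR) was 0.75 without Cdo1AKO 2, 0.93 without control 1, 2.27 without control 2 and 0.25 among the 4 libraries with lymph node transcripts. Ctsk (ENSMUSG00000028111, chromosome 3, 95499256 to 95509362, plus strand), the collagen-cutting cathepsin K of osteoclasts, fibroblasts and some macrophages, had 46.4, 28.7 and 32.6 CPM in controls and 36.2, 71.4 and 39.3 CPM in Cdo1AKO. Control 1 lay above Cdo1AKO 1 and 3. The log2 fold change of 0.45 ± 0.32 (SE, adjusted p = 0.672 by edgeR) was 0.075 without Cdo1AKO 2.

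Apoe (ENSMUSG00000002985, chromosome 7, 19696109 to 19699188, minus strand) encodes an apolipoprotein that carries cholesterol out of macrophages and that TREM2 can bind. Apoe ran the other way and at a far higher level. It stood at 7108, 4691 and 4706 CPM in controls and at 3610, 2903 and 3709 CPM in Cdo1AKO. Every Cdo1AKO library lay below every control, with control 1 highest and Cdo1AKO 2 lowest, the reverse of Trem2, Gpnmb, Cd68, Lipa and Atp6v0d2. Apoe had a log2 fold change of -0.69 ± 0.35 (SE, adjusted p = 0.564 by edgeR), which was -0.59 without Cdo1AKO 2, -0.47 without control 1 and -0.37 ± 0.14 among the 4 libraries with lymph node transcripts. Apoe took 0.457% to 0.650% of all counts in controls and 0.250% to 0.415% in Cdo1AKO. The adipocyte marker list, whose cells also make Apoe, had negative values too: 12 of 12 tested genes had a negative fold change, with a median of -0.49, or -0.84 without Cdo1AKO 2. Its summed level was 41652 to 63887 CPM in controls and 25299 to 46908 CPM in Cdo1AKO. In Cdo1AKO 2, where Apoe was lowest, that sum was 46908 CPM, the highest of its group. The part of adipocytes in the Apoe difference was not tested.

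**Figure D2:**
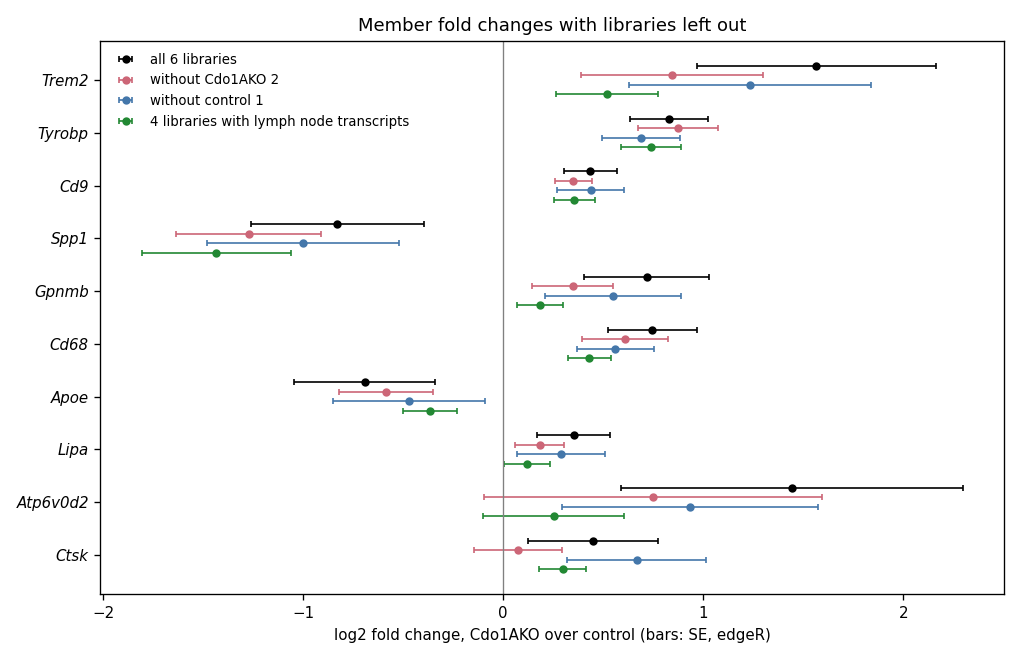
Log2 fold change of Cdo1AKO over control for each gene (horizontal axis, bars SE by edgeR) from all 6 libraries, without Cdo1AKO 2, without control 1 and from the 4 libraries with lymph node transcripts. No gene changes sign among these fits, and Trem2 moves from 1.57 to 0.52 and Atp6v0d2 from 1.44 to 0.25 while Tyrobp stays between 0.69 and 0.87.

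For Trem2, Gpnmb, Cd68, Lipa, Atp6v0d2 and Apoe the lowest and highest libraries were the 2 with lymph node transcripts near 0. The ratio of Cdo1AKO 2 to control 1 was 10.7 for Trem2, 3.11 for Gpnmb, 2.67 for Cd68, 2.05 for Tyrobp and 0.408 for Apoe. The ratio of group means among the other 4 libraries was 1.44 for Trem2, 1.14 for Gpnmb, 1.35 for Cd68, 1.67 for Tyrobp and 0.779 for Apoe. The contrast between control 1 and Cdo1AKO 2 rests on 1 library per group and allows no test. Within the other 4 libraries, 6 of the 10 genes were higher without overlap, against 32% of genes tested there, and 2, Spp1 and Apoe, were lower, against 30.1%. Separation is this common with 2 libraries a group, and the lower share is below the background.

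Per kilobase of listed gene length, which allows levels of different genes to be set side by side, Apoe led in controls with 2573 ± 651 CPM per kilobase (SD, n = 3). Tyrobp followed with 33.6 ± 6.85, and Ctsk (23.7 ± 6.18), Lipa (23.0 ± 2.47), Cd68 (18.3 ± 4.15) and Cd9 (17.6 ± 0.313) came next. In that order Ctsk and Lipa differed by less than the SD of either, whereas Lipa and Cd68 differed by more than the SD of either. Cd68 and Cd9 differed by less than the SD of Cd68 but by more than that of Cd9. Gpnmb had 4.79 ± 1.03, and Spp1 (1.07 ± 0.224), Atp6v0d2 (0.973 ± 0.838) and Trem2 (0.726 ± 0.347) were lowest, with neighbours in that order closer than the larger SD of each pair. In Cdo1AKO the order per kilobase was Apoe at 1594 ± 206, Tyrobp at 59.6 ± 6.30, Ctsk at 32.4 ± 12.9, Cd68 at 30.7 ± 4.70, Lipa at 29.4 ± 5.74, Cd9 at 23.9 ± 2.47, Gpnmb at 7.87 ± 3.09, Atp6v0d2 at 2.66 ± 1.77, Trem2 at 2.16 ± 1.48 and Spp1 at 0.607 ± 0.289. Spp1, eighth in controls by this level, was thus last in Cdo1AKO.

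General macrophage genes had the same direction as most members. Of 15 pan-macrophage markers, 13 had a positive log2 fold change with a median of 0.46, and the mean log2 CPM of the 15 was 4.86, 4.86 and 4.88 in the controls and 5.19, 5.34 and 5.21 in the Cdo1AKO libraries. None passed edgeR's test over all genes. At an unadjusted p under 0.05, 4 were higher, Fcer1g, Csf1r and Adgre1 among them, and 1, Cd14, was lower. Over all genes tested these shares were 4.66% and 5.71%. Fcer1g, the Fc receptor gamma chain that like TYROBP carries a signalling motif, had 20.1, 19.4 and 18.9 CPM in controls and 30.4, 29.4 and 29.3 CPM in Cdo1AKO. The lipopolysaccharide co-receptor gene Cd14, which adipose cells other than macrophages can express, had 37.9, 18.1 and 30.1 CPM against 12.6, 13.8 and 10.2 CPM. Csf1r, the receptor that keeps macrophages alive, had 65.7, 76.2 and 66.5 CPM against 93.3, 98.7 and 88.3 CPM. When lymph node transcripts were a term, 2 passed on the higher side, Fcer1g among them, and 1, Cd14, on the lower. In that fit 2.26% of all genes passed higher and 1.87% lower. Adgre1 was named after its values were seen.

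Set against those 15 markers in the same library, the difference was near 0 for 3 members. The measure is log2 of CPM plus 0.5 minus the mean log2 of the markers, a description with no test. For Cd9 the group means differed by 0.048, for Lipa by -0.040 and for Ctsk by 0.026. For Trem2 the relative level was -2.93 ± 0.67 in controls and -1.95 ± 0.80 in Cdo1AKO (SD, n = 3), a difference of 0.98, and the groups overlapped. Atp6v0d2 differed by 1.09, also with overlap, Tyrobp by 0.45, Gpnmb by 0.29 and Cd68 by 0.37. On this measure 1 gene of the 10, Cd68, was above every control in every Cdo1AKO library. Its margin was narrow, with Cdo1AKO 3 at -0.065 and control 2 at -0.107. Apoe (-1.05) and Spp1 (-1.01) were lower in every Cdo1AKO library relative to the macrophage markers. The marker mean itself was higher in every Cdo1AKO library, which lowers this measure there for every gene. In CPM alone the groups overlapped for Spp1. How common separation of the groups is over all genes was not computed for this measure.

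**Figure D3:**
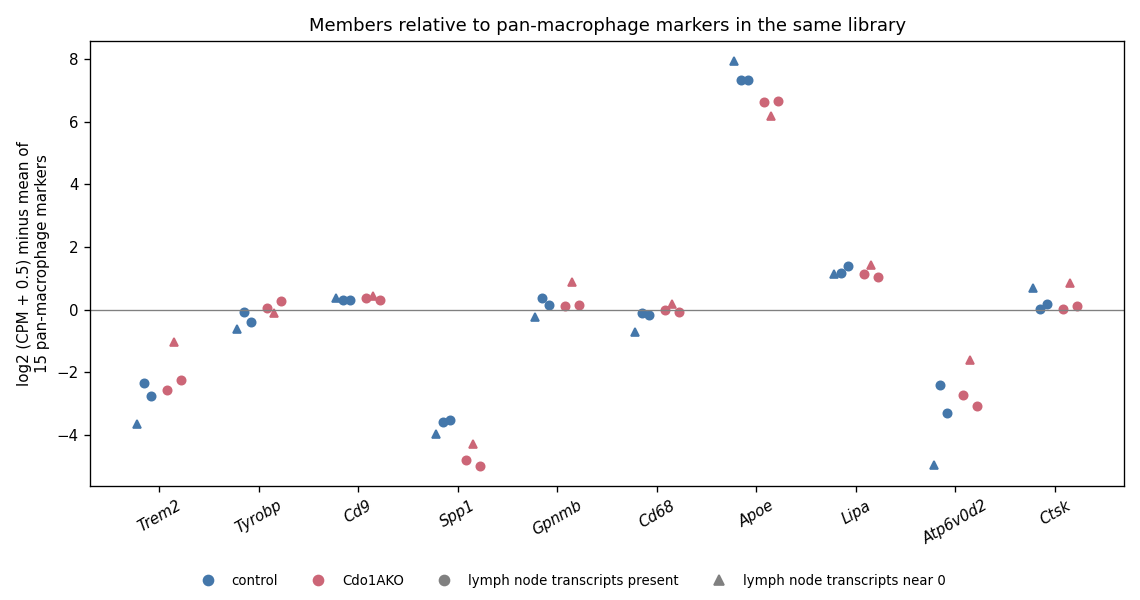
Log2 of CPM plus 0.5 of each gene minus the mean of 15 pan-macrophage markers in the same library (vertical axis), for control and Cdo1AKO libraries, with triangles where lymph node transcripts were near 0. Cd9, Lipa and Ctsk overlap between the groups, whereas all Cdo1AKO points of Spp1 and Apoe lie below the control points.

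Resident and perivascular macrophage markers had a median log2 fold change of 0.27 over 13 tested genes, 11 of them positive. Gas6, a ligand of receptors that bind dying cells, had 0.41 ± 0.16, the hyaluronan receptor gene Lyve1 -0.37 ± 0.15 and the transcription factor gene Maf 0.25 ± 0.13 (log2 fold change, SE). The median of this list was 0.0040 without Cdo1AKO 2 and 0.50 without control 1. Monocyte and neutrophil markers (9 tested, 6 positive) had a median of 0.37, which was 0.023 without control 1, 0.75 without control 2 and -0.12 without Cdo1AKO 1. Among them Ccr2, the chemokine receptor of incoming monocytes, had 14.8, 22.5 and 18.3 CPM in controls and 29.6, 30.6 and 29.5 CPM in Cdo1AKO. S100a9, of neutrophils, had 1.96, 2.25 and 1.82 CPM in controls against 0.150, 0.129 and 0 CPM. Fn1, the fibronectin gene, had a log2 fold change of 0.94 ± 0.45 (SE). All 12 dendritic cell markers had a positive fold change (median 0.97); their summed level was 164 to 444 CPM in controls and 375 to 1001 CPM in Cdo1AKO. Fscn1 had 1.89 ± 0.39, Cd209a 0.99 ± 0.30 and Batf3 1.83 ± 0.60 (log2 fold change, SE). The median of this list was 0.67 without control 1 and 1.66 without control 2. T cell markers had 12 of 12 positive values and a median of 1.76, which was 1.196 without control 1 and 2.52 without control 2. Groups overlapped for each of the 12, and 0 passed by edgeR, with 0 at an unadjusted p under 0.05. When lymph node transcripts were a term, the fit in which Tyrobp passed, 7 of the 12 passed on the higher side. So did 5 of the 12 dendritic cell markers, against 2.26% of all genes tested in that fit. Dendritic cells make Tyrobp and Gpnmb, and natural killer cells, which share several of the T cell markers, make Tyrobp; the part of these cells in the members' differences was not tested.

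Other genes known from lipid-associated macrophages did not move as 1 group. Of 22 tested, 17 had a positive log2 fold change, with a median of 0.45, and none passed by edgeR. Capg, an actin-capping protein, was higher at an unadjusted p under 0.05, and Gpx3 and Mgst1, a secreted peroxidase and a microsomal glutathione transferase, were lower. Over all genes tested these shares were 4.66% higher and 5.71% lower. Capg had 33.8, 62.7 and 52.7 CPM in controls and 75.1, 71.3 and 77.7 CPM in Cdo1AKO. Gpx3, which adipocytes make in quantity, had 1905, 983 and 1451 CPM against 631, 206 and 627 CPM, and Mgst1 1121, 716 and 859 CPM against 458, 726 and 491 CPM. Without Cdo1AKO 2 the median of the list was -0.032, so its positive value rests on that library. Its summed level was 26968 CPM in Cdo1AKO 2, above every other library (10351 to 18744 CPM). Most of that sum came from Lpl at 11697 CPM and Cd36 at 5750 CPM, both named after their values were seen. The sum therefore speaks mainly of those genes and not of the list.

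Genes around TREM2, such as its signalling kinases, adaptors and shedding proteases, had a positive fold change in 16 of 19 tested. Their median was 0.31, or 0.11 without control 1, 0.67 without control 2 and 0.20 among the 4 libraries with lymph node transcripts. Summed over the list, control 1 reached only 274 CPM and Cdo1AKO 2 only 414 CPM, both being libraries with lymph node transcripts near 0. All other libraries held 639 to 953 CPM. The genes named next by smallest p, Card9, Ms4a7 and Cd300lb, were not lowest in both of those libraries. The part of lymph node cells in the list's values was not tested. Card9, an adaptor downstream of SYK, had 2.64, 3.96 and 3.70 CPM in controls and 8.00, 4.63 and 7.03 CPM in Cdo1AKO, without overlap. Ms4a7, a membrane protein of macrophages, had 4.72, 4.17 and 3.65 CPM against 6.35, 5.02 and 6.31 CPM. Cd300lb, a receptor that pairs with TYROBP, had 4.85, 5.88 and 5.90 CPM against 6.65, 12.6 and 6.09 CPM. A fit with lymph node transcripts as a term called 1 of the list, Hcst, the sister adaptor gene next to Tyrobp (1.51 ± 0.26, adjusted p = 0.0347 by edgeR). Hcst was named after its values were seen and had 30.9 and 28.8 CPM in Cdo1AKO 1 and 3 but 2.06 CPM in Cdo1AKO 2, where T cell markers were also near 0: that list summed to 23.0 CPM there and to 1370 and 1396 CPM in Cdo1AKO 1 and 3.

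Lysosomal hydrolase genes were mostly on the higher side. Of 27 cathepsins and other hydrolases tested, 23 had a positive log2 fold change (median 0.25), and none passed by edgeR over all genes. At an unadjusted p under 0.05, 5 were higher, Man2b1, Lgmn and Gusb among them, against 4.66% of all genes tested. In 8 of the 27 every Cdo1AKO library lay above every control, against 8.87% of all genes tested. The mannosidase gene Man2b1 had 95.4, 150 and 131 CPM in controls and 218, 211 and 208 CPM in Cdo1AKO, and passed in the fit with that term (adjusted p = 0.0470 by edgeR). Lgmn, which activates cathepsins, had 64.9, 65.0 and 67.0 CPM against 88.0, 128 and 90.4 CPM, and the glucuronidase gene Gusb 47.6, 65.0 and 59.8 CPM against 82.6, 116 and 78.8 CPM. The summed level of the hydrolases was 4089 to 4339 CPM in controls, 4393 and 4292 CPM in Cdo1AKO 1 and 3, and 7804 CPM in Cdo1AKO 2. Leaving out Cdo1AKO 2 brought the median to 0.12.

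Lysosomal membrane and lipid export proteins (14 tested, 6 positive, median -0.10) and the other subunits of the proton pump (18 tested, 9 positive, median -0.016) were divided between both directions. Without Cdo1AKO 2 these medians were -0.19 and -0.30, and that of the pump subunits was 0.065 without Cdo1AKO 3. Of the former list Cd63 had -0.34 ± 0.19, Cln3 0.49 ± 0.32 and the cholesterol-binding protein gene Npc2 0.46 ± 0.31, and of the pump subunits Atp6v0e2 had 0.76 ± 0.30, Tcirg1 0.49 ± 0.27 and Atp6v1g1 -0.25 ± 0.21 (log2 fold change, SE). Atp6v0e2 had the highest fold change of those 18 subunits, below the 1.44 of Atp6v0d2, and the difference between the genes was not tested. Genes of the MiT/TFE transcription factors, which switch on lysosomal genes, and of their regulators had a median of -0.13 over 13 tested, or -0.25 without Cdo1AKO 2. Fnip1 had -0.46 ± 0.15, Flcn -0.52 ± 0.25, and Mitf 18.3, 25.7 and 20.5 CPM in controls against 16.8, 13.96 and 16.6 CPM in Cdo1AKO, without overlap. Genes of cholesterol and lipoprotein handling (16 tested, median -0.050) had 7 positive and 9 negative members. At an unadjusted p under 0.05, 1 was higher and 3 were lower, against 4.66% and 5.71% of all genes tested. The median of the list was -0.21 without Cdo1AKO 2 and 0.081 without Cdo1AKO 1. The cholesterol exporter gene Abca1 had 295, 283 and 290 CPM in controls and 216, 228 and 220 CPM in Cdo1AKO, the receptor gene Lrp1 -0.68 ± 0.26, and Nr1h3, which encodes the sterol sensor LXR-alpha, -0.63 ± 0.24 (log2 fold change, SE). Pltp, the phospholipid transfer protein gene, had 193, 158 and 204 CPM in controls and 270, 355 and 210 CPM in Cdo1AKO, without overlap. Lcat, which encodes the enzyme that esterifies cholesterol in lipoproteins, was also higher without overlap. Lcat had 1.29 to 1.66 CPM in controls and 1.99 to 2.36 CPM in Cdo1AKO, and both genes were named after their values were seen. Of the 16, 2 were higher and 2 lower without overlap, against 8.87% and 9.73% of all genes tested.

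Osteoclast genes were examined because Atp6v0d2, Ctsk and Spp1 are also genes of bone-resorbing cells. Calcr had 0 or 1 counts in every library, Oscar 8 to 14, Ocstamp 2 to 5 counts in controls and 4 to 22 in Cdo1AKO, and Dcstamp 4 to 12 and 6 to 21, with both highest in Cdo1AKO 2. Acp5, the tartrate-resistant phosphatase, was abundant in all libraries. It had 465, 403 and 418 CPM in controls and 316, 481 and 322 CPM in Cdo1AKO, with overlap. Receptors for osteopontin and osteoclast-type genes as a list had 13 of 15 positive and a median of 0.43 (0.28 without control 1). Csf1r, Itgb5 (0.53 ± 0.20) and Tnfrsf11a (0.82 ± 0.34, log2 fold change, SE) were higher at an unadjusted p under 0.05, against 4.66% of all genes tested. Fibroblast markers, whose cells also make Ctsk, had a median of 0.38, which was -0.041 without Cdo1AKO 2. Of the 14, 10 had a positive and 4 a negative fold change. Their summed level was 15104 to 23067 CPM in controls, 12548 and 11563 CPM in Cdo1AKO 1 and 3, and 18320 CPM in Cdo1AKO 2. Their median level was 62.4 to 74.0 CPM in the other libraries and 160 CPM in Cdo1AKO 2. Col1a1 stood at 946 CPM in that library and at 350 and 265 CPM in Cdo1AKO 1 and 3, Col3a1 at 2743 against 832 and 790 CPM, and Fbn1 at 209 against 46.9 and 44.6 CPM. Ctsk was highest in the same library, and the part of fibroblasts in its value was not tested. The list of RNA quality and dissection stress genes had 10 positive and 5 negative members and a median of 0.10, which was -0.33 without Cdo1AKO 2 and 0.38 without Cdo1AKO 3. Its 3 genes with the smallest p were immediate early genes: Ier2 had 0.95 ± 0.15, Junb 0.87 ± 0.20 and Egr1 1.93 ± 0.65 (log2 fold change, SE), and their part was not tested either.

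**Figure D4:**
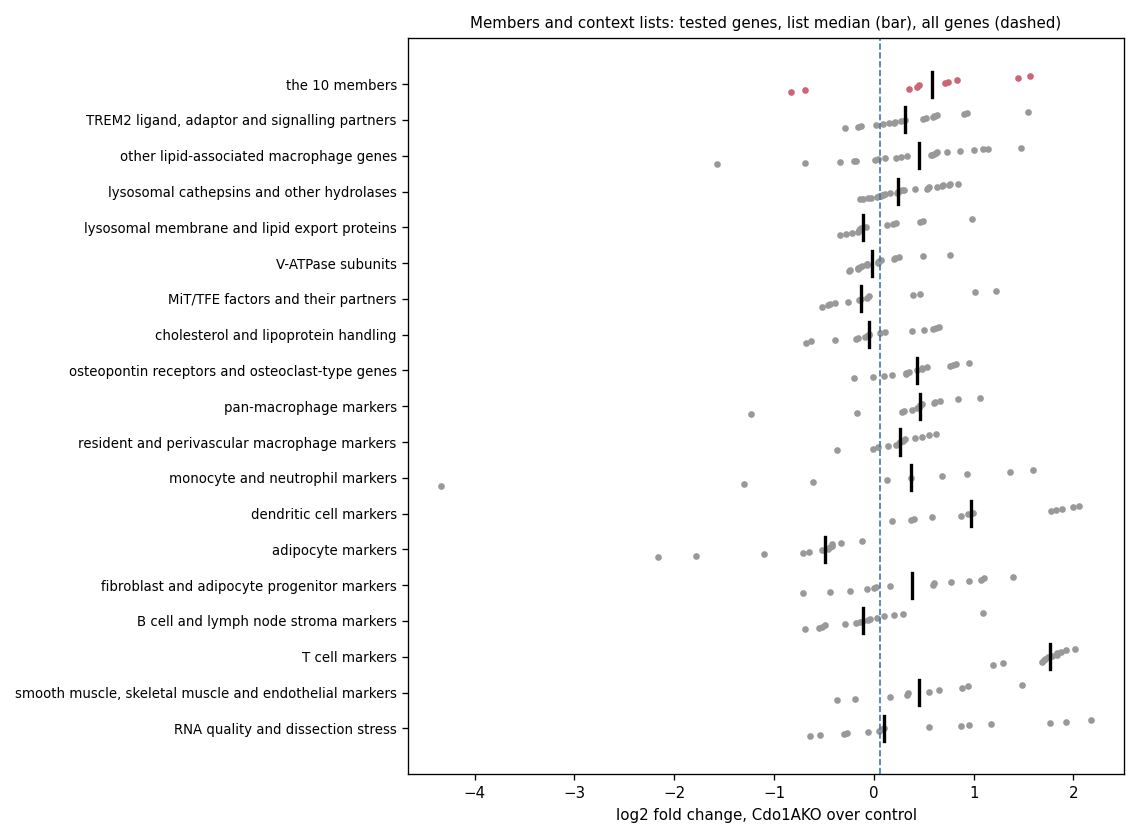
Log2 fold change of Cdo1AKO over control (horizontal axis) of each tested gene in the 10 members and 18 context lists, with the list median as a bar and the median of all genes tested as a dashed line. The members' median is 0.58, that of the pan-macrophage markers 0.46, that of the adipocyte markers -0.49 and that of all genes 0.058.

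The genes whose profile over the 6 libraries was most like the mean of the members were Nck2, Gltp, Tpm4, Slc45a4 and Rap2a. Likeness was the root mean square distance between centred log2 profiles, among 11741 genes with a mean of at least 5 CPM. It was 0.0616 for Nck2 and 0.0747 for Rap2a, against a median of 0.440 over those genes. The members did not share that mean profile closely. Gpnmb was nearest to it at 0.137, and Lipa, Cd68, Cd9, Tyrobp and Ctsk lay at 0.162 to 0.368. Spp1 (0.568), Trem2 (0.587), Apoe (0.744) and Atp6v0d2 (0.830) were farther from it than that median. Gltp, a glycolipid transfer protein gene, had 80.4, 98.5 and 98.6 CPM in controls and 119, 177 and 114 CPM in Cdo1AKO. Nearest to Trem2 alone were Tmem132a (0.186), Fam83d (0.187) and Gm5627 (0.224), against a median distance to Trem2 of 0.967. Fam83d had 1.78, 5.88 and 4.29 CPM in controls and 7.30, 26.3 and 6.70 CPM in Cdo1AKO, with the same low control 1 and high Cdo1AKO 2 as Trem2. Among the members themselves, Atp6v0d2 was nearest to Trem2 (0.413), then Gpnmb (0.456) and Cd68 (0.535), and Apoe (1.32) and Spp1 (1.07) were farthest.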

How the data were processed

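Counts per gene for 6 libraries were deposited by the authors in 1 table, per the file headers, beside FPKM and the results of the authors' own comparison (log2 fold change, p-value, adjusted p-value). The submitters' processing notes name mm10, HISAT2 2.0.5, DESeq2 1.20.0 and featureCounts 1.5.0-p3 with no role for each; no source used here gives a strand setting. The FPKM values deposited by the authors were not used. Columns headed WT belong to the samples titled control, which share that genotype label and their numbers.

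Raw counts were filtered with filterByExpr, scaled by TMM and compared by edgeR's quasi-likelihood test (version 4.0.16, R 4.3.3) with no term but group, with Benjamini-Hochberg adjustment over all 16623 genes and a threshold of 0.05. SE is that of the log2 fold change. The fit was also run on simulated counts that held no lymph node difference, and the outcome is not given here. The lymph node term marks libraries in which the median of the B cell and lymph node stroma markers is above 5 CPM. Alternatives used other scaling and filters, DESeq2 1.42.0, limma-voom (limma 3.58.1), robust estimation, a replicate block, that term, and left-out libraries.

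The members, gene lists and alternatives were chosen with earlier results of these data known. Named genes were the 10 members, Cdo1, up to 3 genes of each list by smallest p, and the nearest profiles (5 to the members' mean, 3 to Trem2); others are marked where they appear. No other list holds a member. Some genes of the lists are not reported here by name.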

Additional observations from a re-analysis of the deposited data

How the results depend on the processing

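All 160 values of the 10 members under 16 other settings kept their direction, and 155 also kept their side of the threshold. The other 5 passed: Tyrobp with DESeq2, with the lymph node term and in the 4 libraries with lymph node transcripts, and Spp1 and Cd68 in those 4 libraries. By edgeR 0 genes passed with group as the only term. With DESeq2 399 passed (2.55%), with the lymph node term 686 (4.13%) and in the 4 libraries 2617 (15.3%). The members among them numbered 1, 1 and 3 of the 10. In the 4 libraries the members' median was 0.27 in place of 0.58. With 1 library left out, members at an unadjusted p under 0.05 numbered 2 (without control 3) to 5 in place of 4, and the members' median ran from 0.35 without Cdo1AKO 2 to 0.71 without Cdo1AKO 1. Without Cdo1AKO 2 the fold changes of Trem2, Gpnmb, Lipa, Atp6v0d2 and Ctsk shrank and that of Spp1 grew by over 1.5 times. With library totals in place of TMM factors the median of all genes was 0.13 in place of 0.058. The replicate block called 0 genes and 0 members, with a members' median of 0.55 and Tyrobp at adjusted p = 0.896 by edgeR. Same-numbered samples had deviations correlated at -0.66, -0.66 and 0.42. Control 1 and Cdo1AKO 2, both without lymph node transcripts, had 0.70. The correlations go with that difference, so they cannot tell whether the numbers pair the samples. Depth limits Spp1, with 12 to 38 counts a library, and Atp6v0d2, with 7 counts in control 1.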
